A study of Mus musculus with 9 samples.

Results

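The positive acute phase proteins are plasma proteins that the liver makes in larger amounts during inflammation or tissue injury. Of them, 10 genes were followed here in rat liver: Crp, Hp, Orm1, Lcn2, A2m, Cp, Saa4, Itih3, Itih4 and Hpx. They were picked by gene name, with earlier results of these data already known. Each of the 10 symbols matched 1 of the 19686 genes of the count table. RNA-seq gave 9 liver libraries of male Wistar rats, 3 each in the control, model and DSS groups, and each library was read as 1 rat. Control rats drank purified water and received saline by gavage. Model rats drank 15% fructose and received saline by gavage. Rats of the DSS group drank 15% fructose and received an extract of the herbal formula Danggui-Shaoyao-San (DSS) by gavage at 1.8 g/kg. All rats were treated for 8 weeks and fasted for 12 h before sampling. The study took only the 50% methanol extract of the formula to transcriptomics, so the DSS group is read as that extract. The organism field of the labels names the mouse, whereas the strain field names the Wistar rat and the table uses rat gene identifiers.

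In the acute phase response, cytokines such as interleukin-6 and interleukin-1, released mainly by macrophages, act on hepatocytes. Interleukin-6 signals through gp130 and Stat3, and interleukin-1 through NF-kB, while C/EBP factors and glucocorticoids act on the same promoters. Secretion of the positive acute phase proteins then increases and that of negative ones such as albumin decreases. The pattern depends on the species. In the rat, A2m is the classic strongly induced acute phase protein and is scarcely made by the uninflamed adult liver, whereas Crp, the leading acute phase protein in humans, is already abundant in rat plasma at rest.

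A control library held 14345819 to 21978523 counts, a model library 14922429 to 26837227 and a DSS library 18331311 to 21180914. The spread between rats was far above counting error, with a chi-square per gene of 18.2 to 65.9 between rats of 1 group. Model replicate 1 was the most deeply sequenced library and stood apart from the others, at -59.2 on the second principal component (22.9% of the variance), where the next library was at -16.7. It had the highest level of all 9 rats for Hp, Hpx, Lcn2, Saa4 and Itih3, and results that rest on it are given with and without it. All 10 hepatocyte markers were measured, with a summed level of 108728 to 136952 CPM (counts scaled to a common library size) in the control rats, 133093 to 174802 CPM in the model rats and 135828 to 171300 CPM in the DSS group. Alb, the albumin gene and itself a negative acute phase gene, made up most of that sum. Single markers went both ways in model against control. In every model rat Cps1, Cyp2e1, Hnf4a and Tat were lower than in any control rat, and Apob and Asgr1 were higher. Cps1 was at 3767 to 4461 CPM in the control rats and at 2037 to 2977 CPM in the model rats. Apob was at 3914 to 4860 CPM and at 5686 to 6448 CPM. The other markers overlapped between these groups. Of all genes, 11.2% were higher and 9.86% lower without overlap. In every rat of the DSS group Apoa1, Apob, Ttr, Cyp2e1, Asgr1 and Pck1 were higher than in any control rat. The other markers overlapped there, and none was lower without overlap. Among all genes, 15.1% were higher and 14.9% lower without overlap in DSS against control. Apob was at 5263 to 6455 CPM in the DSS group. In whole liver, a larger share of a cell type and more RNA per cell cannot be told apart, and the part of the hepatocyte signal in the results on genes made by hepatocytes was not tested.

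Together the 10 genes took a slightly larger share of all counts in both fructose-fed groups than in the control group. Their share was 2.81% to 2.94% of counts in the control rats, 3.25% to 3.78% in the model rats and 3.30% to 3.49% in the DSS group, so neither fructose-fed group overlapped with the controls. The model and DSS groups overlapped with each other. This share is a sum of counts, and Hp, Crp and Hpx had the most counts of the 10 genes in every library. It does not describe a shift of each gene. Levels below are CPM after TMM scaling, errors of group means are SDs (n = 3), and levels are compared between rats but not between genes, since counts also depend on transcript length. Fold changes are log2 values with their SE from edgeR's quasi-likelihood test on the 6 libraries of a comparison, and FDR is the Benjamini-Hochberg adjusted p over all genes tested. The call needed a log2 fold change of 0.5 or more in either direction with an FDR no higher than 0.01.

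None of the 10 genes was called by edgeR in any comparison. A2m passed the filter on low counts only through the control rats and is left out of the counts that follow. In model against control, 0 of the other 9 were called where 0.0801% of all 12486 genes were. In DSS against model, 0 of these 9 were called where 0.136% of 12502 genes were. In DSS against control, 0 of the 9 were called where 1.48% of 12633 genes were. At an FDR of 0.05 with the same fold, the counts were 0, 0 and 3, and the corresponding shares of all genes were 0.601%, 0.456% and 6.36%. The 3 genes were Crp, Cp and Hpx in DSS against control. Under another scaling, filter, tool or design, their log2 fold changes there went down to 0.367, 0.490 and 0.443, below the cutoff of 0.5. The FDR of Hpx went up to 0.164. The unadjusted p was under 0.05 for 3, 1 and 3 of the 9 genes in the 3 comparisons, in the order above. It was under 0.05 for 13.2%, 8.02% and 24.3% of all genes. DESeq2 called 0, 0 and 3 of them, the last being the same 3 genes, and called 2.05%, 1.18% and 6.09% of all genes. The 3 comparisons share their groups, since each group stands in 2 of them, and are not independent of one another.

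**Figure D1:**
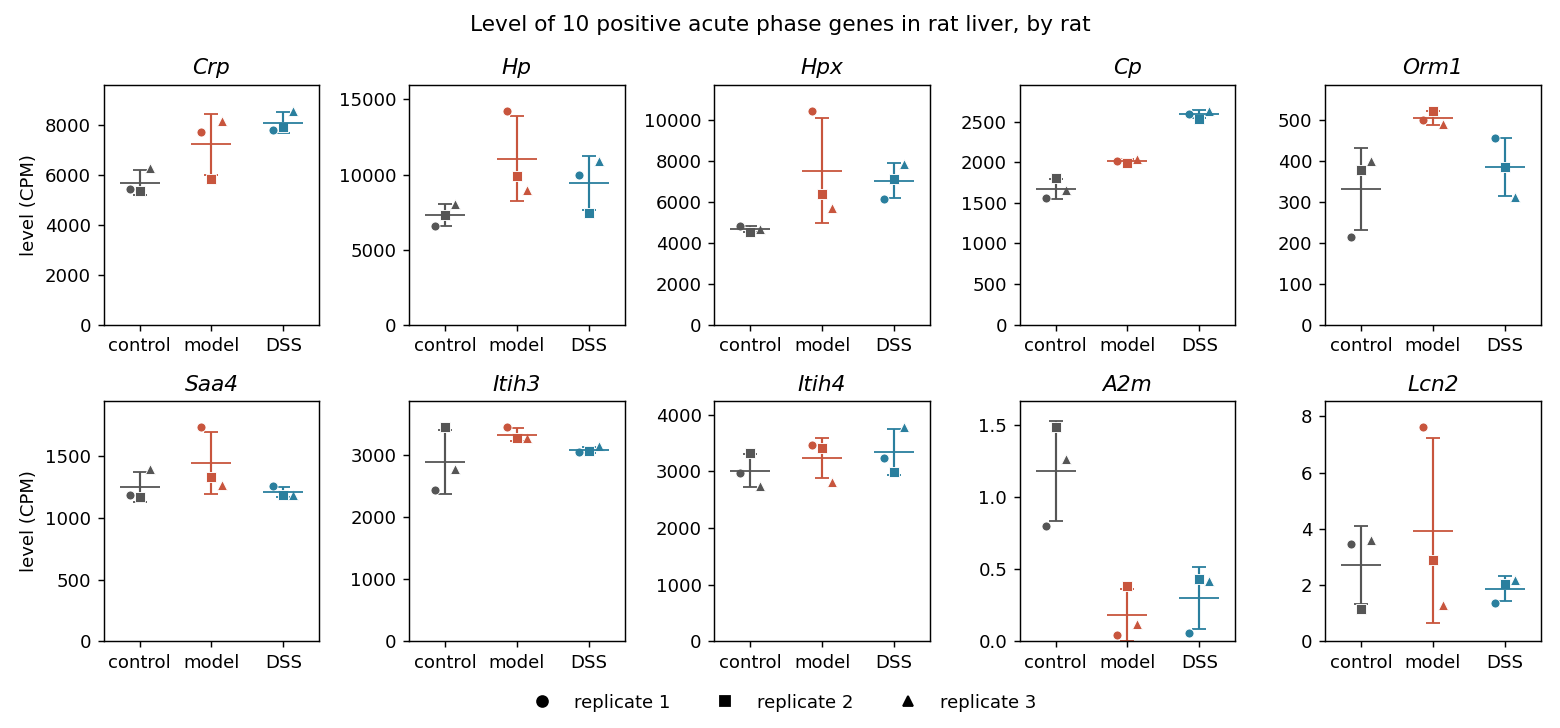
Level of each of the 10 acute phase genes in the 9 rats, in CPM on a linear axis from 0 with its own scale for each gene. Symbols are single rats of the control, model and DSS groups, long lines mark the mean and error bars the SD (n = 3). The model and DSS points for Hpx and Cp lie above all control points, and those for A2m lie below them, whereas the groups overlap for Itih4.

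Haptoglobin, hemopexin and ceruloplasmin bind free haemoglobin, free haem and copper in plasma. All 3 genes had higher levels in every model rat than in any control rat. Hpx (ENSRNOG00000018257) was at 4820.1, 4545 and 4682 CPM in the control rats, at 10474, 6410.3 and 5705 CPM in the model rats and at 6147, 7114 and 7879 CPM in the DSS group. The lowest fructose-fed rat was thus above the highest control rat, and the model rats were the most spread out. Mean levels were 4682 ± 138, 7529.8 ± 2574 and 7047 ± 868 CPM. The log2 fold change was 0.68 ± 0.24 in model against control (95% interval 0.13 to 1.24, FDR 0.283) and 0.58 ± 0.13 in DSS against control (interval 0.28 to 0.88, FDR 0.0333). Without model replicate 1 the first of these was 0.36. Between the DSS and model groups the difference was -0.09 ± 0.25 (interval -0.66 to 0.48, FDR 0.956), and it was 0.22 without model replicate 1.

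Hp (ENSRNOG00000014964) was at 6541, 7311 and 8065 CPM in the control rats, at 14258, 9916 and 8952 CPM in the model rats and at 9949, 7464 and 10895 CPM in the DSS group. The model rats did not overlap with the controls, but DSS replicate 2 lay among the control values. Model against control gave a log2 fold change of 0.59 ± 0.22 (interval 0.09 to 1.09, FDR 0.298), which was 0.35 without model replicate 1. DSS against control gave 0.36 ± 0.17 (FDR 0.224) and DSS against model -0.22 ± 0.23 (FDR 0.873), the latter being 0.01 without model replicate 1.

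Cp (ENSRNOG00000011913), the gene of the copper-carrying ferroxidase ceruloplasmin, had little spread within groups. Its level was 1561, 1808 and 1657 CPM in the control rats, 2019.6, 1997 and 2043 CPM in the model rats and 2596, 2537 and 2636 CPM in the DSS group. No 2 groups overlapped, and Cp was the only one of the 10 genes for which this held in all 3 comparisons. The means were 1675 ± 124, 2019.9 ± 23.1 and 2589.9 ± 49.6 CPM. It differed by 0.27 ± 0.14 (log2) in model against control (FDR 0.482), 0.36 ± 0.13 in DSS against model (interval 0.05 to 0.67, FDR 0.549) and 0.62 ± 0.12 in DSS against control (interval 0.35 to 0.89, FDR 0.0186). The FDR of the last comparison ran from 0.0369 to 0.0682 when each rat was left out in turn, was 4.77e-06 with DESeq2, and was 0.00777 in edgeR without the filter on low counts.

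Of 9 tested genes for receptors and enzymes of haemoglobin and haem clearance, such as those that take up the haptoglobin and hemopexin complexes, 4 had a positive and 5 a negative log2 fold change in model against control (median -0.04). In DSS against model 5 were positive and 4 negative (median 0.11), and in DSS against control 6 were positive and 3 negative (median 0.05). edgeR called none, with unadjusted p values under 0.05 for 1, 2 and 3 of them, and DESeq2 called 1, Slc22a17, in DSS against control. Red blood cell markers (6 of 8 measured) summed to 439 to 1186 CPM in the control rats, 393 to 609 CPM in the model rats and 359 to 728 CPM in the DSS group, with overlapping ranges.

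Crp and Saa4 belong to the pentraxins and the serum amyloid A apolipoproteins. C-reactive protein binds phosphocholine on microbes and damaged cells and activates complement, and Saa4 encodes the constitutive serum amyloid A of high-density lipoprotein. Crp (ENSRNOG00000000053) was at 5444, 5334 and 6259.7 CPM in the control rats, at 7699.9, 5835 and 8146 CPM in the model rats and at 7787, 7898 and 8572 CPM in the DSS group. Model replicate 2 lay within the control range, whereas all 3 rats of the DSS group were above it. Mean levels were 5679 ± 506, 7227 ± 1226 and 8085 ± 425 CPM. Crp differed by 0.35 ± 0.19 (log2) in model against control (FDR 0.485), 0.17 ± 0.18 in DSS against model (interval -0.24 to 0.58, FDR 0.876) and 0.50 ± 0.13 in DSS against control (interval 0.21 to 0.79, FDR 0.0483). The FDR of the last ran from 0.0785 to 0.156 over the fits that leave out 1 rat, and that of Hpx ran from 0.0503 to 0.108.

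Saa4 (ENSRNOG00000055531) differed little between the groups, at 1187, 1169 and 1392 CPM in the control rats, 1734, 1333 and 1264 CPM in the model rats and 1258, 1184 and 1184 CPM in the DSS group. The DSS group lay within the control range, and the model rats overlapped with the controls. Its log2 fold change was 0.21 ± 0.18 in model against control (FDR 0.665), or 0.04 without model replicate 1, and -0.25 ± 0.17 in DSS against model (interval -0.63 to 0.13, FDR 0.803), the latter being -0.098 without model replicate 1. The inducible genes Saa1 and Saa2 were not analysed here.

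Orm1 and Lcn2 encode lipocalins, small proteins that carry lipophilic ligands. Orm1 is alpha-1-acid glycoprotein, a plasma carrier of basic drugs. Orm1 (ENSRNOG00000007886) was at 215, 377 and 400.3 CPM in the control rats, at 499, 522 and 489 CPM in the model rats and at 456, 385 and 313 CPM in the DSS group. The model rats were close together and above all other rats, and the DSS group overlapped with the controls. Group means were 331 ± 101, 504 ± 17 and 384 ± 71.5 CPM. Orm1 differed by 0.60 ± 0.23 (log2) in model against control (interval 0.07 to 1.13, FDR 0.314), -0.38 ± 0.17 in DSS against model (interval -0.77 to 0.003, FDR 0.626) and 0.21 ± 0.25 in DSS against control (FDR 0.662). Control replicate 1 had the lowest Orm1 of all rats, and without it the first of these values was 0.37 and the last -0.02.

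Lcn2 is the siderophore-binding lipocalin that withholds iron from bacteria and is also stored in neutrophil granules. Lcn2 (ENSRNOG00000013973) was scarce, with 19 to 177 counts per library. It was at 3.45, 1.13 and 3.59 CPM in the control rats, at 7.61, 2.89 and 1.29 CPM in the model rats and at 1.35, 2.05 and 2.18 CPM in the DSS group. The groups overlapped throughout, and the 3 model rats spanned nearly the whole range of the 9. The log2 fold change was 0.55 ± 0.65 in model against control (interval -0.95 to 2.05, FDR 0.764) and -0.40 without model replicate 1, so its direction rested on that rat. In DSS against model it was -1.09 ± 0.58 (interval -2.44 to 0.26, FDR 0.728), or -0.16 without model replicate 1, and in DSS against control it was -0.56 ± 0.42 (FDR 0.456). The neutrophil markers (10 of 13 measured) summed to 2.56 to 4.42 CPM in the control rats, 3.79 to 6.16 CPM in the model rats and 4.01 to 6.19 CPM in the DSS group, and Mpo, the granule enzyme myeloperoxidase, was at 0 in 7 of the 9 libraries. S100a9 was at 0.595 to 0.803 CPM in the control rats, 1.48 to 2.59 CPM in the model rats and 1.03 to 2.39 CPM in the DSS group. Mmp8 was also higher in every model rat than in any control rat, and the other markers overlapped there. In DSS against control, S100a9 and Ngp were higher and Camp lower without overlap. Ngp and Camp had at most 7 counts per library. The part of neutrophils in the Lcn2 level was not tested. Slc22a17, the gene of the lipocalin-2 receptor, was at 15.1 ± 1.63 CPM in the control rats, 18.4 ± 3.16 CPM in the model rats and 26.2 ± 4.33 CPM in the DSS group (log2 fold change 0.79 ± 0.15 in DSS against control, FDR 0.0195, called by DESeq2 but not by edgeR).

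A2m, Itih3 and Itih4 belong to plasma protease inhibitor families. Alpha-2-macroglobulin traps proteases of all classes, and the inter-alpha-trypsin inhibitor heavy chains bind hyaluronan in the extracellular matrix, apart from Itih4, which is not linked to bikunin. A2m (ENSRNOG00000028896) was almost absent from the libraries. Its counts were 20, 25 and 19 in the control rats, 1, 6 and 2 in the model rats and 1, 8 and 8 in the DSS group. These correspond to 0.803, 1.49 and 1.26 CPM, to 0.043, 0.385 and 0.123 CPM and to 0.0542, 0.431 and 0.416 CPM. Every control rat was above every fructose-fed rat. The summed counts of 64 and 9 gave a control level 6.90 times that of the model group (95% interval 3.42 to 15.8), and 64 against 17 gave 3.73 times that of the DSS group (2.16 to 6.79). These intervals cover counting error only, and model replicate 2 held 6 of the 9 counts of its group.

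A2m passed the filter on low counts only through the control rats, so a gene kept on these counts had to differ, and its fold changes are given as a description with no test. The log2 fold change was -2.74 ± 0.66 in model against control and -1.94 ± 0.58 in DSS against control. With 1 rat left out the first ran from -3.82 (without model replicate 2) to -2.20 (without model replicate 1) and the second from -2.27 to -1.46. In DSS against model A2m did not pass the filter, and the summed counts gave a ratio of 1.85 (0.780 to 4.71). The members of the alpha-2-macroglobulin family resemble each other in sequence, so reads may be lost or assigned to another member, and counts this low are uncertain. The related genes Pzp and Mug2 encode macroglobulins made by the normal rodent liver. Pzp was at 6328 ± 622, 6615 ± 562 and 9246 ± 922 CPM in the control, model and DSS groups (log2 fold change 0.54 ± 0.14 in DSS against control, FDR 0.0476). Mug2 was at 316 ± 19.8, 426 ± 89.8 and 444 ± 35.3 CPM (0.48 ± 0.12, FDR 0.0411). A2ml1, named after its values were seen, was at 14.3 ± 6.90, 7.47 ± 4.25 and 5.28 ± 2.90 CPM (-1.44 ± 0.53, FDR 0.169). Of the 5 tested genes of this family and its receptors other than A2m, 3 had a positive log2 fold change in model against control, 3 in DSS against model and 4 in DSS against control. edgeR called none of the 5, with unadjusted p values under 0.05 for 1, 1 and 3, and DESeq2 called A2ml1 and Pzp in DSS against control (FDR 0.00752 and 0.00135).

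Itih3 (ENSRNOG00000017689) was at 2443, 3453 and 2789.7 CPM in the control rats, at 3457, 3280.4 and 3277 CPM in the model rats and at 3057, 3068 and 3148 CPM in the DSS group. The DSS group was below all model rats by a small margin, and both groups fell within or near the wide control range. Itih3 differed by 0.20 ± 0.17 (log2) in model against control (interval -0.20 to 0.60, FDR 0.668) and -0.11 ± 0.14 in DSS against model (interval -0.42 to 0.21, FDR 0.895). Itih4 (ENSRNOG00000017381) was at 2965, 3327 and 2743 CPM, at 3456, 3418 and 2818 CPM and at 3239, 2993 and 3777 CPM in the same order, with all 3 groups overlapping. Its log2 fold changes were 0.10 ± 0.16 (interval -0.28 to 0.47, or -0.045 when scaled by library size alone), 0.05 ± 0.16 (interval -0.33 to 0.43) and 0.14 ± 0.14 (interval -0.18 to 0.46) in the 3 comparisons. The other 3 inter-alpha-trypsin inhibitor genes tested had median log2 fold changes of 0.07, 0.13 and 0.20 in the 3 comparisons. Neither edgeR nor DESeq2 called any, and the unadjusted p was under 0.05 for 1, 0 and 0 of them.

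**Figure D2:**
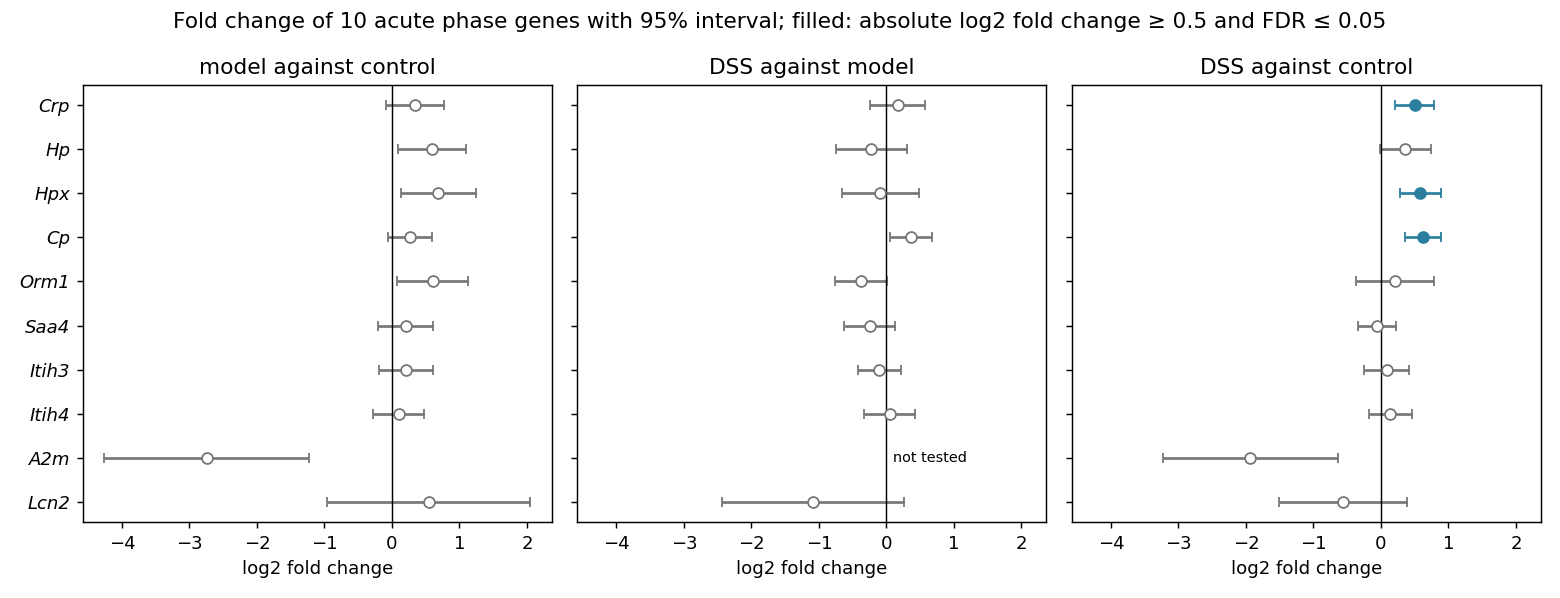
Log2 fold change of each of the 10 genes in each comparison, with its 95% interval from edgeR, filled where the FDR is at most 0.05 and the fold at least 0.5. A2m aside, the intervals of Hp, Orm1 and Hpx exclude 0 in model against control, that of Cp in DSS against model, and those of Crp, Cp and Hpx in DSS against control. The interval of A2m is a description, since A2m passed the filter on low counts only through the control rats.

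Counted over the groups and leaving aside A2m, 4 of the other 9 genes (Hp, Orm1, Cp and Hpx) were higher in every model rat than in any control rat and 0 were lower, where 11.2% and 9.86% of all genes were separated in these directions. Of the genes in DSS against model, 1 (Cp) was higher without overlap and 3 (Orm1, Saa4 and Itih3) were lower, against 6.22% and 7.69% of all genes. In DSS against control 3 (Crp, Cp and Hpx) were higher and 0 lower, against 15.1% and 14.9%. The median log2 fold change of these 9 genes was 0.35 in model against control, -0.11 in DSS against model and 0.21 in DSS against control, where the median of all genes tested was between -0.008 and 0.001. The genes did not share 1 order of groups. The mean of Crp, Cp and Itih4 was lowest in the control group and highest in the DSS group, and that of Hp, Orm1, Itih3 and Hpx was highest in the model group with the DSS group between. Lcn2 and Saa4 had their lowest mean in the DSS group, and A2m had its highest mean in the control group. Neighbouring groups in these orders were separated without overlap for Cp (both steps), for Orm1 and Itih3 (DSS below model), for Hpx (control below DSS) and for A2m (DSS below control), and overlapped elsewhere.

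The other genes of the acute phase response were counted from lists. Among 21 further positive acute phase genes tested, 18 had a positive log2 fold change in model against control (median 0.24, 10 with an unadjusted p under 0.05), 14 in DSS against model (median 0.08, 0 with p under 0.05) and 19 in DSS against control (median 0.31, 12 with p under 0.05). All-gene shares with p under 0.05 were 13.2%, 8.02% and 24.3%. edgeR called 0, 0 and 1 of the list, and DESeq2 called 3, 0 and 3, namely Serpina3n, Lbp and Hamp in the first and last comparison. Without overlap, 12 were higher and 1 lower in model rats than in controls, where 11.2% and 9.86% of all genes were, and 10 were higher and 1 lower in the DSS group than in controls, where 15.1% and 14.9% were.

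Serpina3n, a secreted serine protease inhibitor related to alpha-1-antichymotrypsin, was the 1 gene of this list that rose past the threshold, in DSS against control. It was at 4799.7, 4779 and 5139 CPM in the control rats, at 8169, 6614 and 8514 CPM in the model rats and at 11013, 8916 and 10090.2 CPM in the DSS group, with no overlap between any groups. The log2 fold change was 1.02 ± 0.13 in DSS against control (FDR 0.0036), 0.66 ± 0.17 in model against control (FDR 0.137) and 0.37 ± 0.18 in DSS against model (FDR 0.672). With 1 rat left out the FDR in DSS against control ran from 0.00548 to 0.0206 and stayed under 0.01 without DSS replicate 2, so the call was lost when any of the other 5 rats was left out. Lbp, the lipopolysaccharide binding protein, was at 49.2 ± 6.17, 91.3 ± 19.6 and 123 ± 37.3 CPM in the control, model and DSS groups (1.32 ± 0.21 in DSS against control, FDR 0.012). Hamp, the iron hormone hepcidin, which interleukin-6 induces, was at 149.7 ± 34.1, 376 ± 98.9 and 431 ± 154 CPM (1.33 ± 0.24 in model against control, FDR 0.0598, and 1.52 ± 0.31 in DSS against control, FDR 0.0343).

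**Figure D3:**
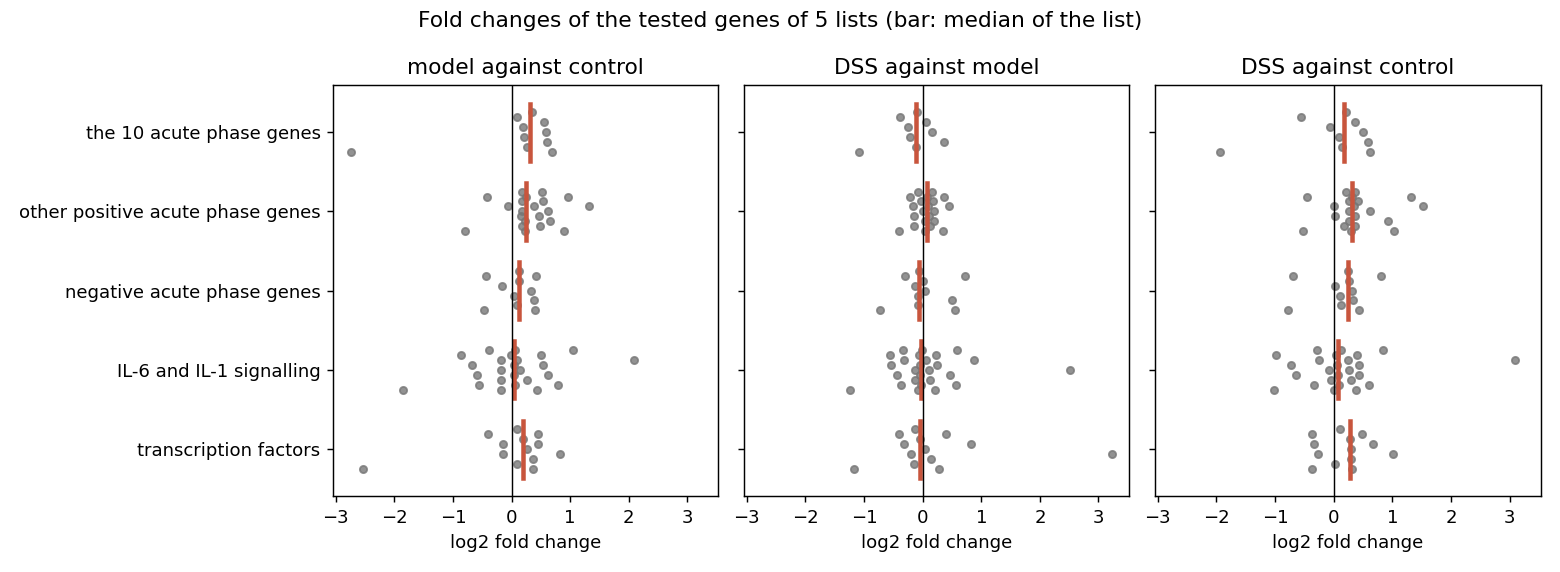
Log2 fold changes of the genes of each list in the 3 comparisons, where points are genes and bars mark the median of a list (with A2m in that of the 10 genes). Among the other positive acute phase genes, 18 of 21 lie above 0 in model against control and 19 of 21 in DSS against control.

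Negative acute phase genes are those whose expression decreases in inflammation, and most on this list encode plasma proteins. Of 11 tested, 8 had a positive log2 fold change in model against control (median 0.12), 5 in DSS against model (median -0.07) and 9 in DSS against control (median 0.25). Apoa1, the main protein of high-density lipoprotein, was at 988 ± 123, 1052 ± 535 and 1739.6 ± 308 CPM in the control, model and DSS groups (0.81 ± 0.16 in DSS against control, FDR 0.0205). Cyp2c11, the male-specific hepatic cytochrome P450 of the rat, was at 2770.0 ± 628, 2012 ± 662 and 1626 ± 63.7 CPM (-0.78 ± 0.17 in DSS against control, FDR 0.0304). edgeR called none of the 11, with unadjusted p values under 0.05 for 0, 1 and 4 of them, and DESeq2 called Apoa1 and Cyp2c11 in DSS against control (FDR 5.27e-05 and 0.000492).

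The genes of interleukin-6 and interleukin-1 signalling showed no common direction. Of 25 tested in model against control, 14 were positive and 11 negative (median 0.05). DSS against model gave 11 positive and 15 negative of 26 (median -0.03), and DSS against control gave 15 positive and 10 negative of 25 (median 0.08). Il18, a cytokine of the interleukin-1 family, was at 6.07 ± 1.0, 3.78 ± 0.857 and 3.03 ± 0.287 CPM (-1.01 ± 0.20 in DSS against control, FDR 0.0208). Il6r, the interleukin-6 receptor gene, overlapped between all groups at 92.7 ± 25.9, 103 ± 21.1 and 121 ± 49.3 CPM, and Il6 itself was not analysed here. Osmr, the oncostatin M receptor gene, was at 4.44 ± 1.38, 1.21 ± 0.519 and 2.24 ± 1.44 CPM (-1.85 ± 0.40 in model against control, FDR 0.103). edgeR called none of the list, with unadjusted p values under 0.05 for 4, 1 and 4 genes, and DESeq2 called Osmr in model against control (FDR 0.00165) and Il18 in DSS against control (FDR 0.00245). The 4 genes in model against control were Il1r1 (1.04 ± 0.35, FDR 0.266) and Nfkbia (0.51 ± 0.18, FDR 0.274), both higher, and Osmr and Il18, both lower. Socs3 was at 2.92, 12.8 and 5.33 CPM in the control, model and DSS groups, which overlapped (2.09 ± 0.96 in model against control, FDR 0.408). Of 13 genes for transcription factors of acute phase promoters, 9 were positive in model against control (median 0.19), 6 in DSS against model (median -0.04) and 9 in DSS against control (median 0.29). edgeR called none, with unadjusted p values under 0.05 for 5, 2 and 1 of them. Among all genes these shares were 13.2%, 8.02% and 24.3%. DESeq2 called 1, Onecut1 (hepatocyte nuclear factor 6), in model against control (FDR 6.75e-05), where edgeR gave -2.54 ± 0.58 and an FDR of 0.117. Onecut1 was at 17.1, 6.54 and 30.7 CPM in the control rats, at 1.59, 3.66 and 4.25 CPM in the model rats and at 33.6, 49.4 and 4.26 CPM in the DSS group, so that 1 rat of the DSS group lay at the model level. The 2 factors with p under 0.05 in DSS against model were Onecut1 (3.23 ± 0.80, FDR 0.254) and Cebpb (-1.18 ± 0.38, FDR 0.445). Cebpb was at 88.0, 156 and 68.6 CPM in the control, model and DSS groups, which overlapped. Il6r, Il1r1, Nfkbia, Socs3, Osmr, Cebpb and Onecut1 were named after their values were seen. Kupffer cell and macrophage markers (11 of 12 measured) summed to 456 to 908 CPM in the control rats, 342 to 751 CPM in the model rats and 482 to 658 CPM in the DSS group, so the groups overlapped.

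For A2m, Lcn2 and Orm1, the genes with the widest range over the 9 rats, the most similar patterns were sought among 10093 genes with a mean count of at least 50. Similarity was Pearson's r of log2 CPM over the 9 libraries and is a description, since the rats of a group share their treatment and the best of many genes were taken. Orm1 was most like Vwa1 (r 0.972), Cadm1 (0.926) and Vnn1 (0.923). The last of these, the pantetheinase vanin 1, was at 8.47 ± 4.66, 35.7 ± 4.62 and 23.4 ± 9.22 CPM in the control, model and DSS groups, with control replicate 1 lowest as for Orm1. A2m was most like Traf3ip1 (r 0.953), Xrcc5 (0.950) and Flna (0.948), all highest in control replicate 2. Lcn2 was most like C1d (r 0.942), Slbp (0.912) and Tmem9b (0.909), all highest in model replicate 1.

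**Figure D4:**
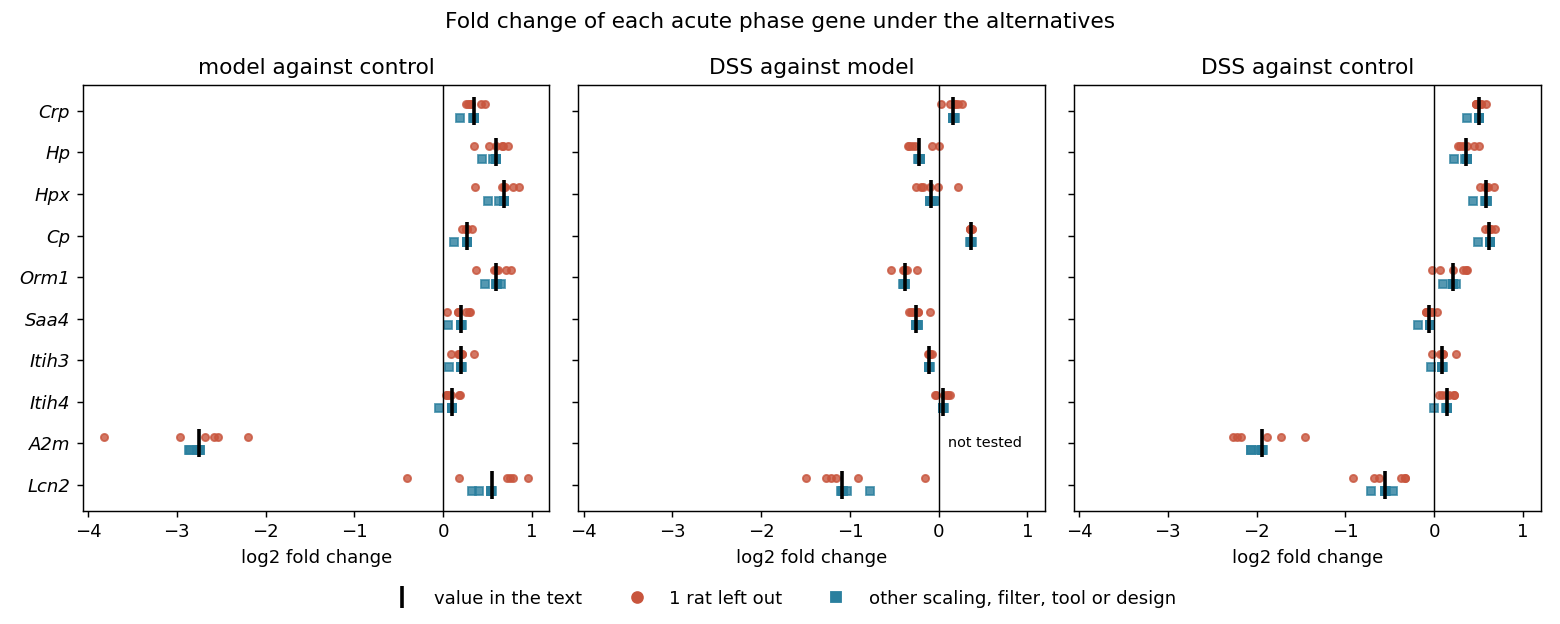
Log2 fold change of each of the 10 genes under the main setting and under each alternative: black bars mark the values in the text, circles the fits with 1 rat left out and squares another scaling, filter, tool or design. The values for Hpx and Hp in model against control are lowest without model replicate 1, at 0.36 and 0.35, and Lcn2 changes sign there.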

How the data were processed

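Liver poly(A) RNA in 9 libraries was analysed. The authors aligned reads with HISAT2, and HTSeq 0.6.1 gave unstranded exon counts. The deposited values are these raw counts per gene. HTSeq leaves out reads that it cannot assign to 1 gene, so overlapping genes and near-identical copies can be undercounted. The submitters' processing notes name build Rnor 6.0, and the annotation release is not given in the sources used here. A table of assembled transcripts was not used, since its unit is not stated. Rat sequences and coordinates were not used here.

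Each pair of groups was fitted with edgeR 4.0.16 (R 4.3.3): filterByExpr at its defaults (minimum count 10), TMM, robust glmQLFit and two-sided glmQLFTest. The SE was the log2 fold change over the square root of F. The ratio of summed A2m counts has an exact binomial interval. DESeq2 1.42.0 was an alternative. The sample titles number the libraries of a group, and each library was read as 1 rat. An exact permutation test of 3 against 3 cannot go below p = 0.1.

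The 10 genes, the lists and the tests were chosen with earlier results of these data known. From the lists, genes called in a comparison were named, then at most 3 per list and comparison at an FDR of at most 0.05. Further list genes and single markers were named after their values were seen. The 3 genes most like each of the 3 widest-ranging genes were also named.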

Additional observations from a re-analysis of the deposited data

How the results depend on the processing

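The number of called genes depended on the setting more than the fold changes did. In model against control 10 genes were called, and the count was 71 without the filter on low counts, 256 with DESeq2, 25 with all 9 libraries in one fit, 75 at an FDR of 0.05 and 0 to 10 with 1 rat left out. In DSS against model 17 were called, against 11 with library size alone, 38 without the filter, 147 with DESeq2, 57 at an FDR of 0.05 and 2 to 12 with 1 rat left out. In DSS against control 187 were called, against 489 without the filter, 769 with DESeq2, 113 with all 9 libraries, 804 at an FDR of 0.05 and 86 to 132 with 1 rat left out. With the replicate number as a block the counts were 0, 7 and 104. Same-numbered rats did not deviate together (correlations from -0.232 to -0.0206), so the numbers do not pair the rats. The causes of these differences were not tested.

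Of the 10 acute phase genes, 0 were called in DSS against control, against 1 without the filter (Cp), 3 with DESeq2, 3 at an FDR of 0.05 and 0 to 0 with 1 rat left out. In the other 2 comparisons the count was 0 under all these settings, the replicate block included. Counting those of A2m, there were 348 alternative values of their fold changes. Of these, 334 kept their direction and side of the threshold, 10 changed sign and 4 passed the threshold. Of 324 for the list genes named at an FDR of at most 0.05, the numbers were 288, 8 and 22, and 6 no longer passed.

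Library size alone moved the median of all genes by -0.15 in model against control and by -0.14 in DSS against control. With it, the log2 fold changes in model against control were -0.045 for Itih4, -0.10 for Apoa1 and -0.085 for Pzp, and Itih3 was at -0.039 in DSS against control. The replicate block gave -0.0201 for Apoa1 in model against control. Leaving out 1 rat turned the sign of some differences, whose ranges over the 6 such fits follow. In model against control these were Lcn2 -0.40 to 0.96 and Apoa1 -0.43 to 0.30, both lowest without model replicate 1, and Pzp -0.00798 to 0.13, lowest without control replicate 2. In DSS against model they were Hp -0.35 to 0.0052 and Hpx -0.25 to 0.22, both highest without model replicate 1, Itih4 -0.0399 to 0.12, lowest without DSS replicate 3 and also negative without model replicate 3 (-0.032), and Mug2 -0.0202 to 0.25, lowest without model replicate 2 and also negative without model replicate 3 (-0.017) and DSS replicate 2 (-0.0014). In DSS against control they were Itih3 -0.022 to 0.24 and Orm1 -0.022 to 0.37, both lowest without control replicate 1, and Saa4 -0.093 to 0.036, highest without control replicate 3. The counts of A2m (1 to 25 per library) limit its precision, whereas for the other 9 genes the spread between rats does.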
